A study of Homo sapiens with 4 samples.

Results

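This account sets the RB siRNA library against the control siRNA library of a CUT&Tag series in 22RV1, an established human prostate cancer cell line. The first group is 22RV1 cells in which RB was knocked down by siRNA, and the second is the control group of that knockdown. The members are the deposited intervals of both lists on chromosomes 1 to 22, X and Y. The control list has 10412 and the RB siRNA list 2553, 12965 of the 26756 intervals of the 4 libraries of the series. The other pair, cells given the CDK4/6 inhibitor PD0332991 and its control, is used here for values side by side. Each group is 1 library, so no difference has a replicate check and no test between groups was made. The siRNA sequence, its dose, the time of harvest and the antibody target are not given in the sources used here. Per the labels' protocols, chromatin was fixed and sonicated, with input and precipitated material. The lists hold no measure of RB protein or RNA, so the knockdown itself was not checked.

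RB, the product of RB1, is a pocket protein that binds E2F factors at promoters of genes for the cell cycle and DNA replication and holds them in a repressed state. Cyclin D with CDK4 or CDK6 phosphorylates RB, which releases E2F and lets cells enter S phase. The title of the series links phosphorylated RB to ETS1, a factor of the ETS family whose members bind a GGAA core and are active at many promoters and in prostate cancer. RBL1 and RBL2 encode the other pocket proteins, which share part of these roles.

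Each deposited interval lists a single summit, its highest point, with the authors' fold over background and −log10 p. These values were solved for the number of treatment fragments at the summit, and levels are given as FPM, fragments at the summit per 1000000 treatment fragments of the library. The libraries held 3479939 (siRNA control) and 2423492 (RB siRNA) recovered fragments, so 1 fragment is worth 0.287 and 0.413 FPM. The intervals are long, with a median width of 180 kb in the control list and 718 kb in the RB siRNA list, and cover 3.03 and 3.06 Gb. In both lists most neighbouring intervals were separated by 1000 to 1600 bp (82.3% and 88.3% of gaps). Background read ends numbered 36253 and 7641. The number of intervals is therefore no measure of binding, and a summit lower than another one in the same interval is not listed. Of the prostate epithelial markers described here, FOXA1 had a listed summit at a gene end (3.16 and 6.19 FPM). KRT8, KRT18, HOXB13 and KLK3 had none, nor did the markers of blood and endothelium or the neuroendocrine genes CHGA, SYP and INSM1. Of a longer neuroendocrine list, SOX2 had 1.15 FPM in the control (4 fragments). Of the fibroblast markers, COL1A2 had 2.06 FPM after RB siRNA and none in the control.

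Most results below concern promoters, and a few stretches of upstream sequence show what lies under the summits. They are from RefSeq on GRCh38.p14, the assembly of the lists (hg38), and each is 120 bases that hold the control summit and overlap no annotated gene. Letters are 5′ to 3′ on the strand of the named gene, and capitals mark the motifs searched, on either strand. The first 3 lie at summits that were high after RB siRNA relative to the other shared summits, and the last 3 at summits that were low.
RAB22A, chr20:58309484-58309603, plus strand: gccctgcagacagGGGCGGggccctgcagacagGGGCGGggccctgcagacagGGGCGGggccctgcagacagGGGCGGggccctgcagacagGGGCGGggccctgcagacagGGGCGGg
WDR91, chr7:135211628-135211747, minus strand: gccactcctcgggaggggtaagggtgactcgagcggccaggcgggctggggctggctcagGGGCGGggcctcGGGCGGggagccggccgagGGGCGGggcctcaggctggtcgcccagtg
LIG1, chr19:48170345-48170464, minus strand: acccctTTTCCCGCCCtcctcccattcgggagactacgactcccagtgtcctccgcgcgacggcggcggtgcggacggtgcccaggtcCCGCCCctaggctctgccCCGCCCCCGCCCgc
ABI1, chr10:26860965-26861084, minus strand: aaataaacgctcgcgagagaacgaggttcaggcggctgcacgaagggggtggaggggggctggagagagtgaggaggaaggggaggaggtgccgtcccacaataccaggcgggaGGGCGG
UBE3C, chr7:157138802-157138921, plus strand: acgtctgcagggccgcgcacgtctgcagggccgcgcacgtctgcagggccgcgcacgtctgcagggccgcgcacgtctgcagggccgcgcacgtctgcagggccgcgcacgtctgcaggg
CTNNBIP1, chr1:9910400-9910519, minus strand: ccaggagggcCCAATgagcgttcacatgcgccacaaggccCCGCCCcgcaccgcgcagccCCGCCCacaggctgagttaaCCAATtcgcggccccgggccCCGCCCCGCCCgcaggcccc
The RAB22A stretch is a 20-base unit repeated end to end, and each of its 6 copies holds a GC box, the GGGCGG letters bound by SP and KLF factors. The LIG1 stretch holds TTTCCCGC, the letters of an E2F site, which overlap a GC box. Their first base is 114 bp upstream of the start site and 92 bp from the summit, which itself lies 22 bp upstream of the start site. The UBE3C stretch is also a tandem repeat, of an 18-base unit, and holds none of the motifs searched. The CTNNBIP1 stretch holds CCAAT boxes and GC boxes.

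Summits at the same place in both libraries were mostly higher after RB siRNA. Pairing summits that were each other's nearest within 250 bp gave 1090 pairs, of which 749 reached a geometric mean of 5 FPM and are called shared here. The authors' fold was low, with a median over listed summits of 1.04 in the control and 1.03 after RB siRNA. Of the 749 pairs, 11 had an authors' −log10 q of at least 2 in both lists. A shared summit is thus a listed high point and not, by itself, a site shown to be bound. The median distance between the paired summits was 34 bp, and 61.3% lay within 50 bp. The median log2 ratio of RB siRNA over control was 0.45 (95% interval 0.42 to 0.47), a fold of 1.36, with an SD of 0.43 over summits, and 636 of the 749 were higher after RB siRNA. This interval is over summits of a single pair of libraries and covers no variation between libraries. The direction depends on the measure. From the authors' deposited fold the same pairs had a median log2 ratio of -0.33. At the genome-wide background 1 fragment added 0.0104 to that fold in the control and 0.00315 after RB siRNA. A change common to all summits cannot be told apart from a difference between the libraries. Single summits are therefore read against the median shift.

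A summit was placed above or below the shift when the exact conditional 95% interval of its own ratio excluded 0.45. This interval covers counting error only, and fragments without molecular identifiers are not independent molecules. Of the 749 shared summits, 57 lay above the shift (7.61%) and 43 below (5.74%), 13.4% in all. At least 2-fold from the shift were 12 above (1.6%) and 6 below (0.801%), 2.4% in all. In all 57 above, the interval also excluded equal FPM, which the rule fixes because the shift is positive. For the 43 below the rule does not require it, and it held for 3. The pair of counts is therefore no comparison of gains with losses.

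**Figure D1:**
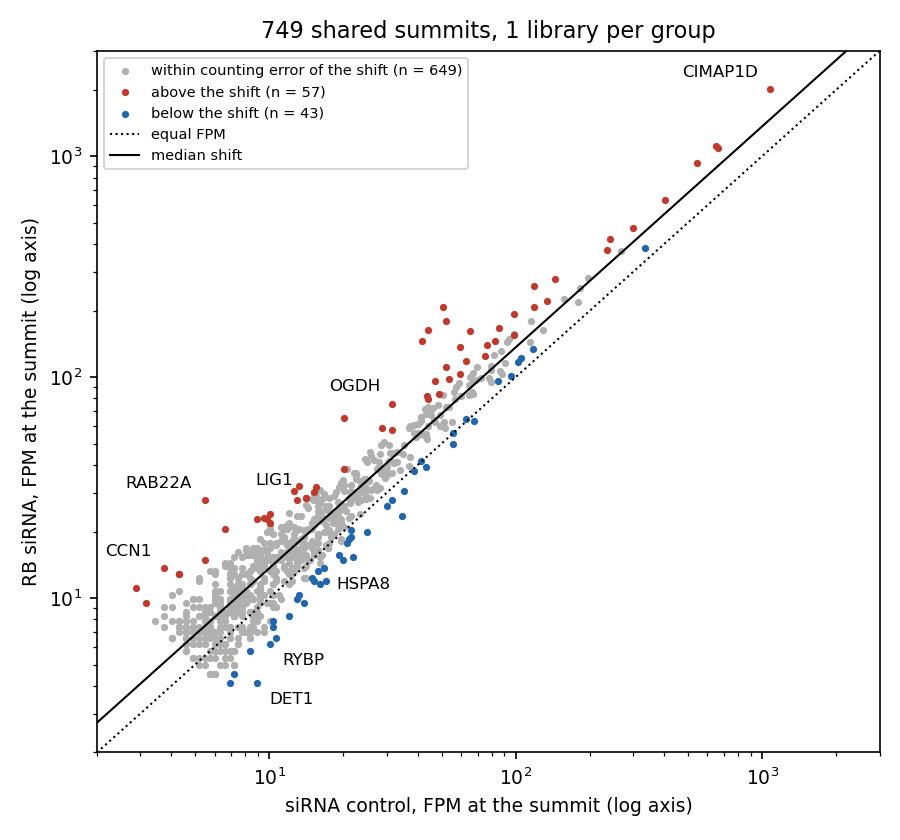
FPM of the 749 shared summits in the siRNA control (x axis) and after RB siRNA (y axis), both on log axes, with 1 point per summit. The solid line is the median shift of 0.45 and the dotted line equal FPM. The 57 red points lie above and the 43 blue points below the shift beyond counting error.

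Most shared summits lay at gene ends, and those near a start site were mostly on its upstream side. Of the 749, 502 were within 1000 bp of an end of a protein-coding gene, 133 inside a gene away from its ends and 114 outside genes. A RefSeq start site with a promoter sequence lay within 1000 bp of 452. Relative to it the control summit was a median of 152 bp upstream (quartiles 234 and 42.25 bp upstream), and 81.4% were upstream. The summits above the shift (median 162.5 bp upstream, n = 20) and below it (206 bp, n = 25) lay in the same region. At 63 of the 452, start sites on both strands lay within reach, as in divergent promoters. Their median log2 ratio was 0.42, with 2 above the shift and 1 below, beside 7.61% and 5.74% of all shared summits.

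**Figure D2:**
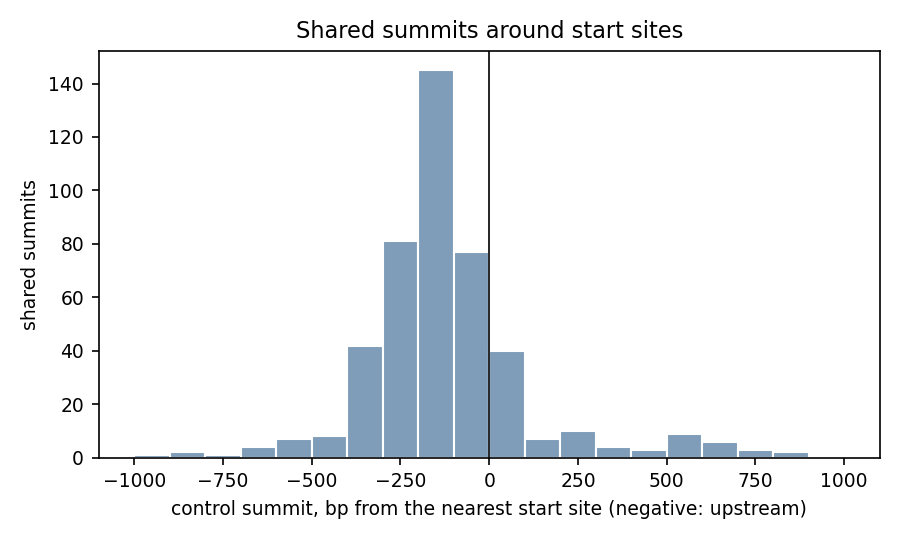
Number of shared summits by distance of the control summit from the nearest start site, in 100-bp classes, for the 452 summits within 1000 bp of one. The fullest class holds 145 summits and lies 200 to 100 bp upstream.

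At gene ends 26 of 502 summits lay above the shift (5.18%, 95% interval 3.41 to 7.50) and 20 below (3.98%, 2.45 to 6.09). Away from gene ends the counts were 31 of 247 (12.6%, 8.69 to 17.3) and 23 (9.31%, 5.99 to 13.6). The medians were 0.45 in both classes. The summits away from gene ends were higher (median 15.2 FPM in the control, against 10.3 at gene ends), which narrows their intervals. The part of this in the difference was not tested.

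The promoters under shared summits were rich in GC boxes. At a GC content of 65 to 75% the ETS core was no more common in them than in all promoters. At lower summits its share was higher, compared over all GC contents only. A shared summit fell inside the 300-base window of 349 of the 22199 promoter sequences (250 bases before to 50 after the start site). A GC box (GGGCGG, either strand) was in 88.3% of the 349 and in 56.3% of all 22199. The CCAAT box (CCAAT), bound by NF-Y, was in 44.7% against 34.7%, and the ETS core (CCGGAA) in 26.4% against 21.2%. The longer ETS letters CCGGAAGT were in 5.44% against 5.34%, and any of the E2F letters TTTCCCGC, TTTGGCGC and TTTCGCGC in 5.16% against 3.43%. The AP-1 letters TGANTCA were in 1.15% against 6.15%. The median GC content was 70.7% and 62.3%, and the shares move with it. Promoters holding a summit under 5 FPM in a library had more ETS letters. Shared summits are set by the geometric mean, so some of these promoters, as that of WDR91, are also among the shared ones. The ETS core was in 32.1% of 1090 for the control and 35.2% of 247 for RB siRNA, and CCGGAAGT in 9.54% and 12.1%. These were not compared at like GC content.

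Among promoters with a GC content of 65 to 75%, the GC box was in 94.2% of 173 with a shared summit and 84.5% of all 6694. The CCAAT box was in 38.7% against 30.5%. The ETS core was in 23.1% against 27.1%, the reverse of the order over all GC contents. Any E2F letters were in 4.62% against 4.44%. The NRF1 letters GCGCATGC were in 6.94% against 5.45%, the cyclic AMP response element TGACGTCA in 6.36% against 2.90%, the E-box CACGTG in 13.9% against 10.7% and the YY1 letters AAGATGGC in 4.62% against 3.70%. Of the promoters whose summit lay above the shift, 1 of 12 held E2F letters (LIG1), and none of the 15 below did. These are shares of letters in a window and not of bound sites.

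**Figure D3:**
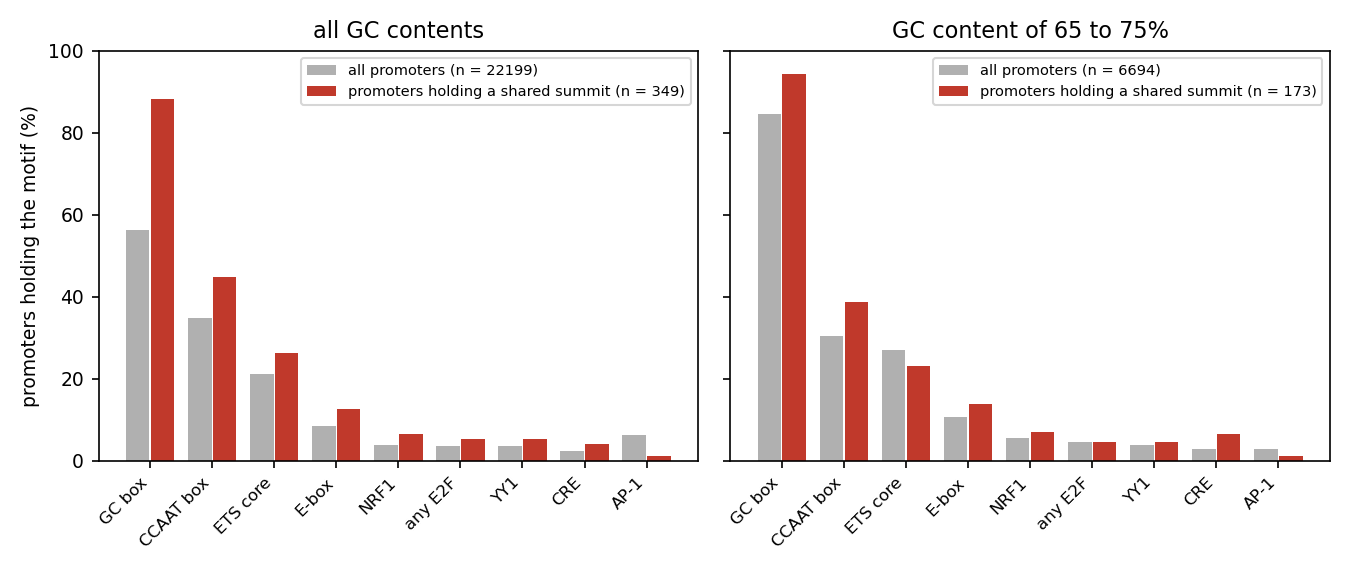
Percentage of promoters that hold each motif on either strand, for all promoters (grey) and those holding a shared summit (red), over all GC contents (left, n = 22199 and 349) and at 65 to 75% (right, n = 6694 and 173). The red bar is the taller for the GC box and the CCAAT box in both panels, and for the ETS core in the left panel only.

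Tandem repeats were found under a few shared summits. A stretch of 100 bases that equals itself in at least 90% of bases when moved by 6 to 60 bases was in 5 of the 349 promoters (1.43%), against 59 of 22199 (0.266%). These were the promoters of RAB22A, SPATC1L, UBE3C, ADSS1 and GRSF1, with units of 20, 53, 18, 26 and 21 bases. The first pair lay above the shift and UBE3C and ADSS1 below it. ADSS1, whose summit is not among the gene ends, had 336 and 384 FPM. GRSF1, an RNA-binding protein gene, had 116 and 179 FPM and lay within counting error. Reads from such repeats can be placed at more than 1 copy, and the number of copies in 22RV1 was not measured here.

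The 26 gene-end summits above the shift ran from 3.16 to 1077 FPM in the control and from 9.49 to 2007 after RB siRNA, with log2 ratios of 0.65 to 2.34. The largest ratio was at RAB22A, a small GTPase of early endosomes (chr20, summit 58309544). It had 5.46 FPM in the control (19 fragments) and 27.6 after RB siRNA (67 fragments), a log2 ratio of 2.34 (1.59 to 3.16). In the other pair it had 18.3 FPM in the inhibitor control and 20.9 under the inhibitor. The siRNA control thus stood low among the 4 libraries, and RB siRNA was the highest.

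WDR91, which acts with RAB7 in the maturation of endosomes, had 3.16 FPM in its control, against 9.49 after RB siRNA (log2 ratio 1.59, 0.49 to 2.77). It had 3.66 in the inhibitor control and 18.9 under the inhibitor. Both controls were low and both treated libraries high, on 11 fragments in the siRNA control and 23 in the RB siRNA library. With a 99% interval WDR91 was within counting error of the shift. CCN1, a matricellular protein gene induced early by growth factors, had 3.74 and 13.6 FPM (1.87, 0.90 to 2.92), on 13 and 33 fragments. Neither inhibitor list has a summit paired with it.

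Among genes of transcription and RNA, ZBTB14, a zinc finger repressor, had 5.46 and 14.9 FPM (log2 ratio 1.44, 0.60 to 2.33). The shared promoter region of SNRPD3, a core protein of spliceosomal particles, and GUCD1 had 9.48 and 23.1 (1.28, 0.64 to 1.95). MXD3, a MAX partner of the MYC network that represses transcription, had 9.77 and 22.7 (1.22, 0.57 to 1.88). At MXD3 the inhibitor control was the highest of the 4 libraries at 31.7 FPM, with 15.2 under the inhibitor, so the siRNA control was again the lowest. ZNF367, a zinc finger gene, had 10.1 and 21.9 FPM (1.12, 0.48 to 1.78) and did not lie above the shift when only pairs of at least 10 FPM set it. With a 99% interval ZBTB14, MXD3 and ZNF367 were within counting error of the shift.

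Of 41 E2F targets of replication in the list, LIG1 alone had a shared summit. It lay above the shift, as did 7.61% of all shared summits. No reading of the list is drawn from this summit. LIG1, the ligase that joins Okazaki fragments in DNA replication, shares a promoter region with ZSWIM9 (chr19, summit 48170366). It had 14.1 FPM in the control and 28.5 after RB siRNA, from 49 and 69 fragments (log2 ratio 1.02, 0.47 to 1.57). Its lower bound is close to the shift, and it lay within counting error of the shift taken over pairs of at least 10 FPM or with a 99% interval. Neither inhibitor list has a summit paired with it, so no further library shows its level.

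In metabolism and structure, OGDH, the first enzyme of the oxoglutarate dehydrogenase complex, had 31.6 and 75.9 FPM (log2 ratio 1.26, 0.92 to 1.62), with 62.6 in the inhibitor control. FBXL13 and ARMC10, a head-to-head pair, had 10.1 and 23.9 (1.25, 0.62 to 1.90), with 12.2 in the inhibitor control, and were within counting error of the shift with a 99% interval. PRDM9, a histone methyltransferase that marks sites of meiotic recombination, had its summit at its 3′ end, with 6.61 and 20.6 FPM (1.64, 0.90 to 2.42). MUC8, a mucin gene, had 119 and 260 (1.13, 0.94 to 1.31), against 449 in the inhibitor control and 457 under the inhibitor. Smaller ratios above the shift were at the initiator caspase gene CASP9 (82.8 and 146 FPM), at SYNCRIP, an RNA-binding protein gene (31.6 and 57.8), and at PHF1 with KIFC1, a Polycomb-like protein and a kinesin (59.2 and 103).

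**Figure D4:**
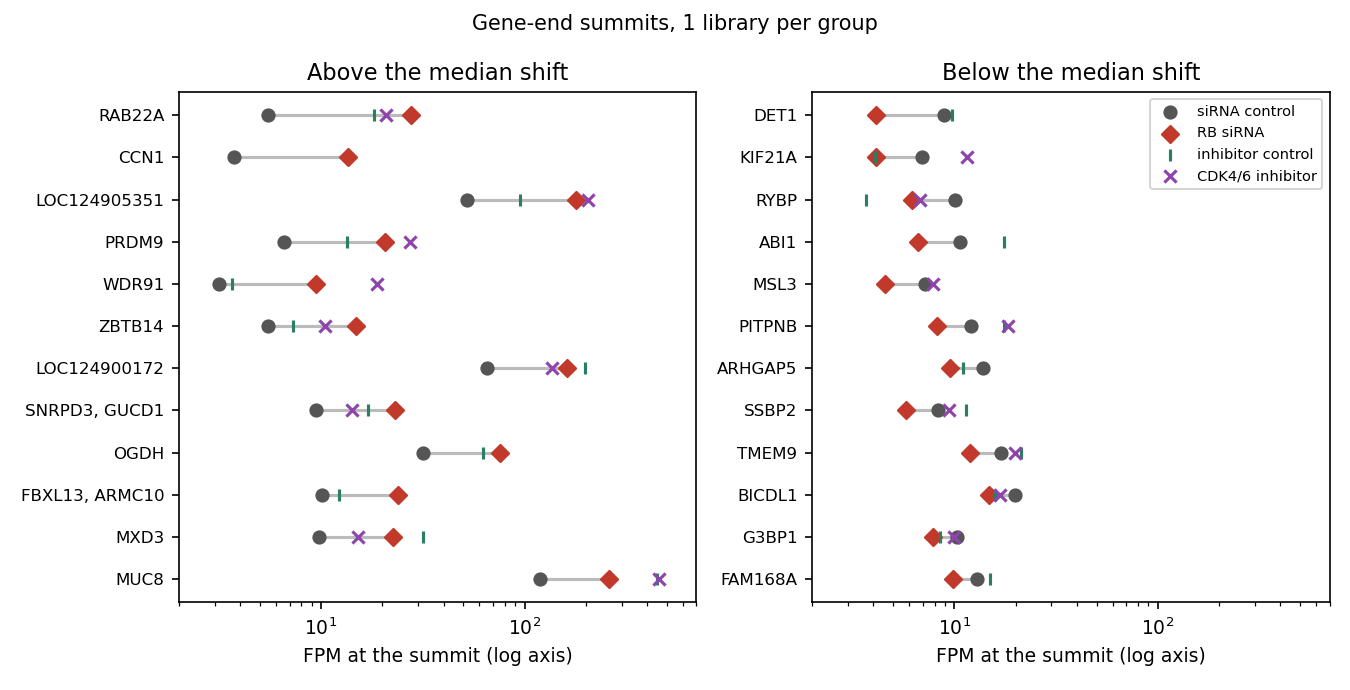
FPM on a log axis of the 12 gene-end summits with the largest (left) and the 12 with the smallest (right) ratio among those beyond counting error of the shift. Points are the siRNA control (grey), RB siRNA (red), the inhibitor control (green) and the inhibitor (purple), where the list holds a paired summit. RB siRNA lies right of its control in every row on the left and left of it in every row on the right.

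The 20 gene ends below the shift had medians of 13.5 FPM in the control and 10.1 after RB siRNA, and 19 had the lower value after RB siRNA. The exception was LMF2 with NCAPH2, a condensin II subunit gene, at 118 and 134 FPM. Only DET1, part of a ubiquitin ligase complex, had an interval below equal FPM, with 8.91 FPM from 31 fragments and 4.13 from 10 (log2 ratio -1.11, -2.30 to -0.04). It had 9.76 in the inhibitor control, close to the siRNA control.

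RYBP, which joins RING1 in variant Polycomb complexes, had 10.1 FPM in the control and 6.19 after RB siRNA (log2 ratio -0.70, -1.68 to 0.21). The inhibitor control had 3.66 and the inhibitor 6.81, so the siRNA control was the highest of the 4 libraries. MSL3, of a histone acetyltransferase complex, had 7.18 and 4.54 (-0.66, -1.83 to 0.41). Genes of the cytoskeleton were KIF21A, a kinesin (6.90 and 4.13; -0.74, -1.97 to 0.38), ABI1, an adaptor of the WAVE complex (10.6 and 6.60; -0.69, -1.63 to 0.19), and ARHGAP5, a GTPase-activating protein (13.8 and 9.49; -0.54, -1.32 to 0.21).

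HSPA8, the constitutive HSP70 chaperone, had 16.7 and 13.6 FPM (log2 ratio -0.29, -0.95 to 0.35), and 30.1 and 25.1 in the inhibitor control and under the inhibitor. Signalling genes below the shift included PITPNB, a phosphatidylinositol carrier (12.1 and 8.25 FPM), CTNNBIP1, an inhibitor of beta-catenin (30.2 and 26.0), PPP3CB, a catalytic subunit of calcineurin (14.9 and 12.4), and the calcium pump ATP2B1 (21.0 and 18.6). UBE3C, a ubiquitin ligase gene whose upstream repeat is printed above, had 20.7 and 17.7. G3BP1, of stress granules, had 10.3 and 7.84. G3BP1, KIF21A, MSL3 and SSBP2 were within counting error when the shift was taken within classes of level, and G3BP1 and SSBP2 also when pairs from 2 FPM set it. With a 99% interval these 4 and RYBP, PITPNB, HSPA8 and UBE3C were within counting error of the shift.

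The ratio was larger among the highest summits. The median log2 ratio was 0.36 (0.31 to 0.43) for 282 shared summits with a geometric mean of 5 to 10 FPM, and 0.46 for 223 of 10 to 20. It was 0.45 for 146 of 20 to 50, 0.51 for 61 of 50 to 100, and 0.66 (0.60 to 0.78) for the 37 of at least 100. In that last class 19 lay above the shift and 4 below. At gene ends alone the lowest class had a median of 0.35 (203 summits) and the highest 0.66 (15 summits). With the shift taken within each class, 47 lay above and 46 below.

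**Figure D5:**
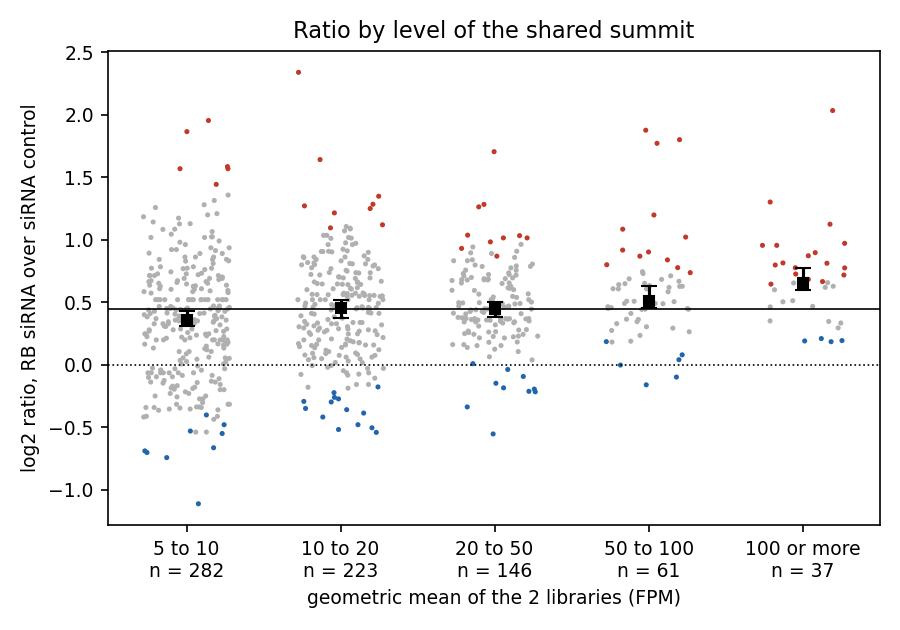
Log2 ratio of RB siRNA over control (y axis) by geometric mean FPM of the pair (x axis, 5 classes), with 1 point per shared summit, red above and blue below the shift. Black squares are class medians with 95% intervals, the solid line is the median of all 749 and the dotted line 0. The median is 0.36 in the lowest class and 0.66 in the highest.

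Of the 6 highest gene-end summits 5 lay above the shift, MUC8 among them. Of all 15 gene-end summits of at least 100 FPM 8 did, and of all gene-end summits 5.18%. MUC8, CIMAP1D, FARP2 and WDR27 lie within 2 Mb of a chromosome end and are also among the summits counted there below. CIMAP1D, the highest in both lists, had 1077 and 2007 FPM (log2 ratio 0.90, 0.84 to 0.96). FARP2, an exchange factor for Rac, had 403 and 630 (0.65, 0.54 to 0.75), WDR27 242 and 420 (0.80, 0.67 to 0.93) and BRD3OS 144 and 279 (0.96, 0.79 to 1.13). TMEM87B, with 197 and 280 FPM, was within counting error of the shift (0.51, 0.35 to 0.66). WDR27 had 545 in the inhibitor control and BRD3OS 386, above both siRNA libraries.

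Ribosomal RNA repeats held summits lower than that of CIMAP1D and higher than those of FARP2, WDR27, BRD3OS, TMEM87B and MUC8 in both libraries. In the transcription units RNA45SN1, RNA45SN2 and RNA45SN3 on chromosome 21, the summit lay 123 bp past the end of the RNA5-8S gene, in the spacer before the RNA28S gene, at the same base in both libraries. RNA45SN2 had 659 FPM in the control and 1091 after RB siRNA (log2 ratio 0.73, 0.65 to 0.81), RNA45SN3 647 and 1109 (0.78, 0.70 to 0.86) and RNA45SN1 545 and 933 (0.78, 0.69 to 0.86). The inhibitor control had 531, 534 and 428 FPM and the inhibitor 865, 877 and 698. The copies share sequence and are not independent values. Both treated libraries were higher there than both controls.

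Several of the largest ratios lay near chromosome ends. Of 72 shared summits within 2 Mb of an end of a chromosome, 18 lay above the shift (25%, 15.5 to 36.6) and 5 below. Of the other 677, 39 lay above (5.76%, 4.13 to 7.79) and 38 below. The medians were 0.61 and 0.44. The former were also higher, with a median control level of 28.2 against 10.6 FPM, and the part of level in this was not tested. LOC124905351, 10.5 kb from the end of chromosome 3, had 52.3 and 179 FPM (log2 ratio 1.77, 1.52 to 2.03). A summit 53.1 kb from the end of chromosome 4 (190122867) had 44.3 and 163 (1.88, 1.60 to 2.16), and LOC124900172, 732 kb from the other end, had 65.2 and 161 (1.30, 1.06 to 1.55).

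The second largest ratio of all lay at an old chromosome end. The summit at 113603059 of chromosome 2, in DDX11L2 and LOC124907874, is in the region where a pair of ancestral chromosomes joined end to end, and which keeps subtelomeric sequence. It had 50.9 FPM in the control and 208 after RB siRNA, from 177 and 505 fragments (log2 ratio 2.03, 1.78 to 2.29). The inhibitor control had 34.2. RB siRNA was the highest of these 3 libraries, and the inhibitor list has no summit paired with it. Reads of subtelomeric families can be placed at more than 1 copy.

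Of the 31 summits above the shift away from gene ends, 14 were inside a gene. CDH15, which encodes M-cadherin, had 41.7 and 145 FPM (log2 ratio 1.80, 1.52 to 2.09), with 234 in the inhibitor control and 268 under the inhibitor. PKD1, the polycystin gene, had 59.5 and 137, and PIK3R5, a regulator of PI3 kinase, 52.3 and 111. TYK2, a Janus kinase gene, had 15.5 and 31.8, and MAD2L2, a subunit of DNA polymerase zeta, 4.31 and 12.8. At CDH15 and PKD1 the siRNA control was the lowest of the 4 libraries. Of the 23 below, 13 were inside a gene. Among them were DLGAP4 (34.5 and 23.5 FPM; -0.55, -1.03 to -0.09), the zinc finger genes ZMYM2 (16.1 and 11.6) and ZNF217 (10.3 and 7.43), and PEG10, an imprinted gene (84.5 and 96.1).

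Most control summits without a partner lay under a higher summit of the RB siRNA list. Of 1750 control summits of at least 5 FPM, 1041 had no partner. For 942 of these (90.5%, 88.5 to 92.2) the RB siRNA interval over the same place lists a summit as high or higher, a median of 349 kb away, and 48 lay in gaps. For 51 the covering RB siRNA interval was lower, and for 16 (1.54%) lower relative to the shift beyond counting error. In 2 of these 16 the interval also excluded equal FPM. They lay inside CASZ1 (9.77 FPM against at most 4.13) and KHDRBS3 (5.17 against at most 1.65).

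The 5 gene ends among the 16 were OSER1, SCAF4, SKIL, SMAD2 and METAP1. SKIL, a repressor of SMAD signalling, had 11.5 FPM in the control and a summit of 8.67 after RB siRNA 313 bp away. SMAD2, a transducer of TGF-beta signals, had 7.47 and, 407 bp away, 4.95. SCAF4, of transcript termination, had 9.48 against at most 6.60, and OSER1 11.5 against at most 6.60. The inhibitor control and the inhibitor had 4.47 and 8.38 at SKIL, 5.69 and 5.24 at SCAF4, and 15.0 and 11.0 at OSER1. Relative to equal FPM, none of these 5 differed beyond counting error.

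After RB siRNA 371 of 1164 summits of at least 5 FPM had no partner, 96 of them hidden (25.9%, 21.5 to 30.6) and 65 in gaps of the control list. The control interval was lower for 210, and for 12 (3.23%) lower relative to the shift beyond counting error. SMAD6, an inhibitor of BMP signalling, had 35.9 FPM and, 647 bp away, a control summit of 17.5. Its gene end had 35.8 FPM in the inhibitor control and 29.9 under the inhibitor, so the siRNA control was the lowest. The region of FIZ1 and ZNF524 had 49.1 against at most 26.4, and 70.0 in the inhibitor control. CAP1, an actin regulator, had 15.7 against at most 6.61, and 16.3 in the inhibitor control. Inside its gene, SFMBT2, a Polycomb group gene, had 6.60 against at most 0.862, a limit that rests on 3 control fragments.

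Without pairing by position the shift was close to the same. The highest summit of each list within the same RB siRNA interval was compared wherever a control interval with its own summit in that window covered the RB siRNA summit. In 914 such windows, taken from a geometric mean of 5 FPM upwards, the median log2 ratio was 0.43 (0.39 to 0.45), and RB siRNA was higher in 770. In 694 (75.9%) the highest summit lay at the same site in both lists. For windows of at least 50 FPM this was 95 of 99 (96.0%), with a median of 0.61.

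The gene lists of the RB pathway held few shared summits. Over 15 lists, 368 genes were found, 26 had a shared summit and these were 24 summits, of which 5 lay above the shift and 2 below, beside 7.61% and 5.74% of all shared summits. RAB22A, WDR91 and OGDH above and both below, HSPA8 and RYBP, are of lists chosen with those values known, so nothing is read from this count. The other lists, with LIG1 and CCN1, were also chosen with earlier results of these data known. Of the 22 genes of the RB family, cyclins, CDKs and CDK inhibitors, CDK4 (30.2 and 35.9 FPM) and CCND1 (5.46 and 7.84), the kinase and the cyclin D1 that phosphorylate RB, had a shared summit, both within counting error. RB1, RBL1, RBL2, CDK6 and CDKN1A had no listed gene-end summit in either library. The interval over RB1 limits it to at most 9.20 FPM in the control and 9.49 after RB siRNA.

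Of 16 E2F and DP factor genes and their partners, LIN52, of the DREAM and MuvB complexes, had a shared summit (13.8 and 15.7 FPM; log2 ratio 0.18, -0.47 to 0.83). E2F7 and E2F8, the atypical repressors, were listed after RB siRNA alone, with 3.30 and 3.71 FPM, of the siRNA pair. The control interval over E2F8 allows at most 1.15, and that over E2F7 4.02. E2F8 had 6.51 FPM in the inhibitor control, more than after RB siRNA. E2F3 was listed in the control alone (5.46), under an RB siRNA limit of 10.7. Of 41 E2F targets of replication, LIG1 was the 1 shared. MCM7, of the replicative helicase (12.1 in the control), CDC45 (9.48) and the histone mRNA binding gene SLBP (19.5) had a control summit alone, with RB siRNA limits of 24.8, 17.3 and 225. GINS2, of the same helicase, had 13.2 after RB siRNA, under a control limit of 20.1. DUT, the dUTPase gene, had 3.71 after RB siRNA, above a control limit of 1.72. The limits given for E2F3, E2F7, MCM7, CDC45, SLBP and GINS2 are higher than the summit listed in the other library, so they give no order. E2F8 and DUT rest on 9 fragments each after RB siRNA, below the minimum of 5 FPM. No interval was computed for their ratios, so whether they differ beyond counting error was not tested.

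Of 19 ETS factor genes, ELK4, a partner of SRF, was shared, with 13.8 and 16.9 FPM (log2 ratio 0.29, -0.34 to 0.93). ELF1 had 5.75 and 7.84 and ELF2 21.3 and 32.6, at summits too far apart to pair. ETS1 had no listed gene-end summit, with limits of 1.44 and 6.19. Of 25 reported ETS1 targets, CCND1 was the 1 shared. VEGFA, the angiogenic growth factor gene, had 4.31 and 3.30, and CCNE1, cyclin E1, had 6.60 after RB siRNA under a control limit of 74.7.

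Of 26 immediate early genes 5 were shared, with CCN1 above the shift and none below, beside 7.61% and 5.74% of all shared summits. Nothing is read from so few summits. The phosphatase gene DUSP1 had 6.90 and 14.0 FPM (log2 ratio 1.02, 0.23 to 1.84), JUNB of AP-1 20.1 and 30.5, EGR1 14.9 and 21.9, and KLF4 6.32 and 8.67. Of 23 p53 targets, RRM2B and TP53I3 were shared, both within counting error. Of 24 genes of BMP and TGF-beta signalling, SMURF1, a ubiquitin ligase for SMADs, was shared (12.6 and 18.6; 0.55, -0.08 to 1.19). Of 69 replication-dependent histone genes, H2AC11 and H2BC11 shared 1 summit (12.6 and 13.6; 0.11, -0.59 to 0.79).

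Of 23 endosome and GTPase genes 5 were shared, with RAB22A and WDR91 above the shift and none below. Over all shared summits 7.61% lay above and 5.74% below. VPS35, of the retromer, had 7.47 and 16.1 FPM (log2 ratio 1.11, 0.35 to 1.88), RAB11B, of recycling endosomes, 15.8 and 26.0 (0.72, 0.17 to 1.27), and RAB5B 23.9 and 31.8 (0.41, -0.05 to 0.88). This list was chosen with the values of RAB22A and WDR91 known, and its count is a description. The same holds for the citric acid cycle list, with OGDH above the shift as the 1 shared of 20. It also holds for the chaperones, where HSPA8 lay below and HSPD1 with HSPE1 (42.8 and 71.8) within counting error, and for the Polycomb list, with RYBP below and CBX8 (31.6 and 45.4) within counting error.

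Across the 425 shared summits listed in all 4 libraries, the median level was 13.8 FPM in the siRNA control, 18.6 after RB siRNA, 21.6 in the inhibitor control and 24.1 under the inhibitor. The siRNA control was the lowest, and the RB siRNA level lay between it and the inhibitor control. The labels name no date or batch for either pair, and the libraries differed in depth and background as given above. The part of these in the shift was not tested.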

How the data were processed

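CUT&Tag libraries of 22RV1 cells were compared as deposited interval lists, 1 per group. Per the submitters' processing notes, reads were handled with bcl2fastq 2.17, Trimmomatic 0.33, Bowtie2 (version given as 2) and MACS2 2.1.0 on hg38; settings are not given in the sources used here. The siRNA lists have 9 columns. The deposited score, fold (a ratio of treatment to background), −log10 p and −log10 q are the authors' values for each summit.

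Fold and p were solved for treatment fragments (pseudocount 1, Poisson tail, as in MACS2), assuming a 2.7 Gb genome and a 10 kb window. FPM depend on these, but ratios do not depend on the genome size. Fragments were whole within 0.05 for 99.96% of control and RB siRNA summits, and for 100% of the 9717 and 2526 at the genome-wide background. The recovery was rerun on lists simulated from its own values with the same formula, which cannot check that formula or the assumed window. Calls were run on pairs simulated with known changes.

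Ratios carry exact conditional 95% intervals, and shares exact binomial (Clopper-Pearson) ones. Intervals of medians are exact, from order statistics. Intervals of medians and shares treat summits as independent and cover no variation between libraries. Gene positions and promoters are RefSeq's on GRCh38.p14. Summits up to 1000 bp from the start or end of an annotated protein-coding gene (20037 in all) count as gene ends, and 15843 of the genes have a promoter sequence, which gave the 5′ end. Named genes are those at the 12 largest and 12 smallest ratios beyond counting error, the 6 highest summits, list members, the 8 unpaired summits per side with the largest lower bound, and 20 fixed genes; further names were chosen after their values were seen. Results for some of these genes and markers are not reported here. The members, lists and motifs were chosen with earlier results of these data known. Alternatives covered scaling, level, pairing distance, interval, q, gene window and contigs. Python 3.11.15, numpy 2.4.6, pandas 2.3.3 and scipy 1.17.1 were used.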

Additional observations from a re-analysis of the deposited data

Results flagged for a closer look

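Contigs outside the main chromosomes were not part of the comparisons. Of their 17 shared summits of at least 5 FPM, 1 lay above the median shift beyond counting error. It was on an unplaced contig and had 549 FPM in the control library, against 945 after RB siRNA (log2 ratio 0.78, 0.70 to 0.87), close to the ratios of the ribosomal RNA units of chromosome 21.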

How the results depend on the processing

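The median log2 ratio of 0.45 reversed to -0.33 from the authors' fold, was 0 by construction after scaling to it, 0.49 and 0.50 at minimums of 10 and 20 FPM, and 0.73 over the 11 pairs with a −log10 q of at least 2 in both lists. The counts of 57 above and 43 below the shift became 35 and 22 at 20 FPM, 12 and 6 at 2-fold, and 2 and 2 under the q minimum, where fewer pairs are left; a 99% interval left 19 below. A gene-end window of 500 bp left 17 of 26 gene ends above the shift and 1 of 2 list summits below it. At 10 FPM, unpaired control summits numbered 389, of which 352 were hidden and 5 had a lower RB siRNA interval beyond counting error. After RB siRNA these were 184, 50 and 5. Pairing within 100 or 500 bp, all contigs and leaving out chromosome ends kept the 57, the 43 and the median close (counts within 1.5 times, the median within its interval). The shift by level did so for the 57 and 43 and for the gene-end counts, and windows in place of pairs for the median; this last pair was chosen after seeing the data. Pairing distance also kept the unpaired counts within 1.5 times. Gene-end and list counts were not recomputed for pairing distance, contigs or chromosome ends. Of 199 values of 24 named genes under alternatives, 161 kept their side of the threshold, 38 lost it, mostly with the 99% interval or the 2-fold minimum, and none reversed. Genes left without a pair under an alternative gave no value there and are not counted, as DET1 with pairing within 100 bp. Depth limits summits near 5 FPM, which rest on few fragments. No paired analysis was possible because each group is 1 library and the labels give no replicate numbers.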
